A study of Mus musculus with 12 samples.

Results

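Chemokine ligands, the small secreted proteins that direct leukocytes into tissues, were examined in mouse lung tumors and normal mouse lung. The members were a list of 33 ligand symbols, and 26 of them were found among the 30399 genes of the deposited table through their Ensembl identifiers. The other 7 symbols (Ccl2, Ccl6, Ccl19, Cxcl10, Cxcl11, Cxcl17 and Xcl1) were not analysed here. Messenger RNA was selected by its poly-A tails and sequenced in 5 samples labelled normal lung and 7 labelled tumor, from a lung cancer model in mice made by CRISPR/Cas9 mutagenesis without a virus. In such a model a guided nuclease cuts a gene so that faulty repair can disable it. The labels give neither strain, age nor treatment for either group, nor the genes mutated in each tumor. The titles of tumors 3 and 4 share the number 159 and those of tumors 5, 6 and 7 the number 201, which leaves 4 distinct numbers among the tumors. What the number stands for is not stated. The titles of tumors 1 and 7 also hold the word Traquea (trachea). Because nothing says that the samples came from separate animals, p-values measure only the spread between these samples.

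Chemokines are named by the spacing of the first cysteines of the protein, as CC, CXC, CX3C or XC ligands, and act through receptors of the G protein-coupled family on leukocytes, endothelium and epithelium. Some are made at rest and place cells within a tissue, and others are induced by cytokines such as interferon gamma, tumor necrosis factor and interleukin 1 during inflammation. In lung, macrophages, epithelium, endothelium, fibroblasts and platelets each contribute ligands, and tumors can differ in which leukocytes they draw.

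Depth ran from 11126432 to 17032234 reads recovered from the table in normal lungs and from 13093843 to 24217633 in tumors. At this depth 3 reads correspond to a normalized count (reads divided by the authors' size factor of the library, not by gene length) of up to 4.85 in normal lung and 3.57 in tumors, below which a value rests on fewer than 3 reads. These floors cover counting error only. The labels were checked against marker lists. Summed over 6 alveolar epithelium markers, normalized counts were 169182 to 282356 in normal lungs and 966 to 3287 in tumors, and over 6 neuroendocrine markers 167 to 197 and 23106 to 107256. Tumor 7 stood apart in cardiac muscle markers, at a sum of 35354 against at most 2115 in the other tumors and 3973 in normal lungs. Its 4 leukocyte markers summed to 16281, against 7701 to 13281 in normal lungs and 437 to 3861 in the other tumors. The mean log2 level of Y-linked genes was over 9 for 4 normal lungs and 1 tumor and at most 1.48 for the rest. This level thus went largely with the group. What differs with it cannot be fully told apart from what differs between tumor and normal lung.

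Most chemokine ligands were lower in tumors, and a single ligand was higher. Each gene was tested with limma on log2(value + 1), and called at a Benjamini-Hochberg adjusted p under 0.05 over all 23674 genes tested, with no limit on the size of the change. By this rule 16 of the 26 ligands fell, where 30.1% of all tested genes did, and 1 rose, where 31.4% did. The remaining 9 did not pass the threshold. All 26 had a mean of at least 1 and entered the test. The median log2 fold change of the 26 ligands was -2.51, beside 0.04 for all tested genes. Scaling all columns to equal totals shifted the median of all genes to 0.24 and gave the same counts of ligands. All 7 tumors lay below all 5 normal lungs in 7 ligands (18.4% of all tested genes) and above them in 1 (20.1%). In these bulk samples, fewer cells of a type and less RNA per cell cannot be told apart.

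The count of lower ligands differed between methods and with tumor 7, which was high in many ligands. The edgeR quasi-likelihood test on recovered reads compares mean levels rather than mean log levels. It was run on 11 samples without tumor 3, whose reads did not pass a second check of whole multiples, and called 7 of 24 tested ligands lower (background 26.3%) and 1 higher (34.9%). DESeq2 on the same samples called 11 of 24 lower (25.6%) and 1 higher (31.7%). With tumor 7 also left out, a fit added after seeing the data, edgeR called 14 of 21 lower (32.2%) and 1 higher (34.4%). Limma without tumor 7 called 21 of 26 lower (32.1%) and 1 higher (32.6%). The ligands that edgeR and limma both called lower, on 11 and 12 samples, were Ppbp, Cxcl14, Cxcl12, Cxcl5, Cx3cl1, Pf4 and Ccl11, and Ccl25 was called higher by both.

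**Figure D1:**
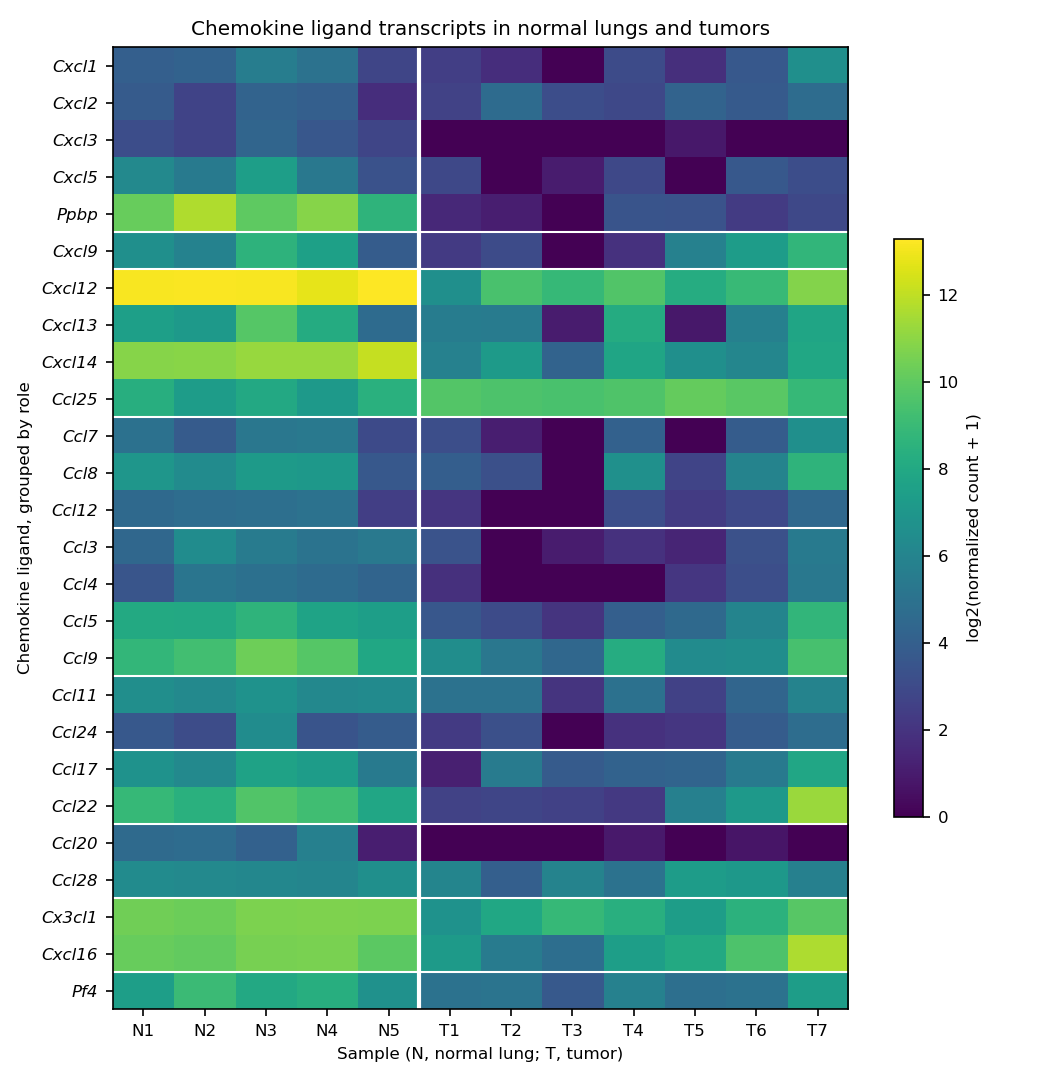
Heat map of log2(normalized count + 1) for the 26 chemokine ligands (rows, grouped by role, white lines between groups) in 5 normal lungs (N1 to N5) and 7 tumors (T1 to T7). Most rows darken from normal lung to tumor, Ccl25 brightens, and T7 keeps many rows bright.

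**Figure D2:**
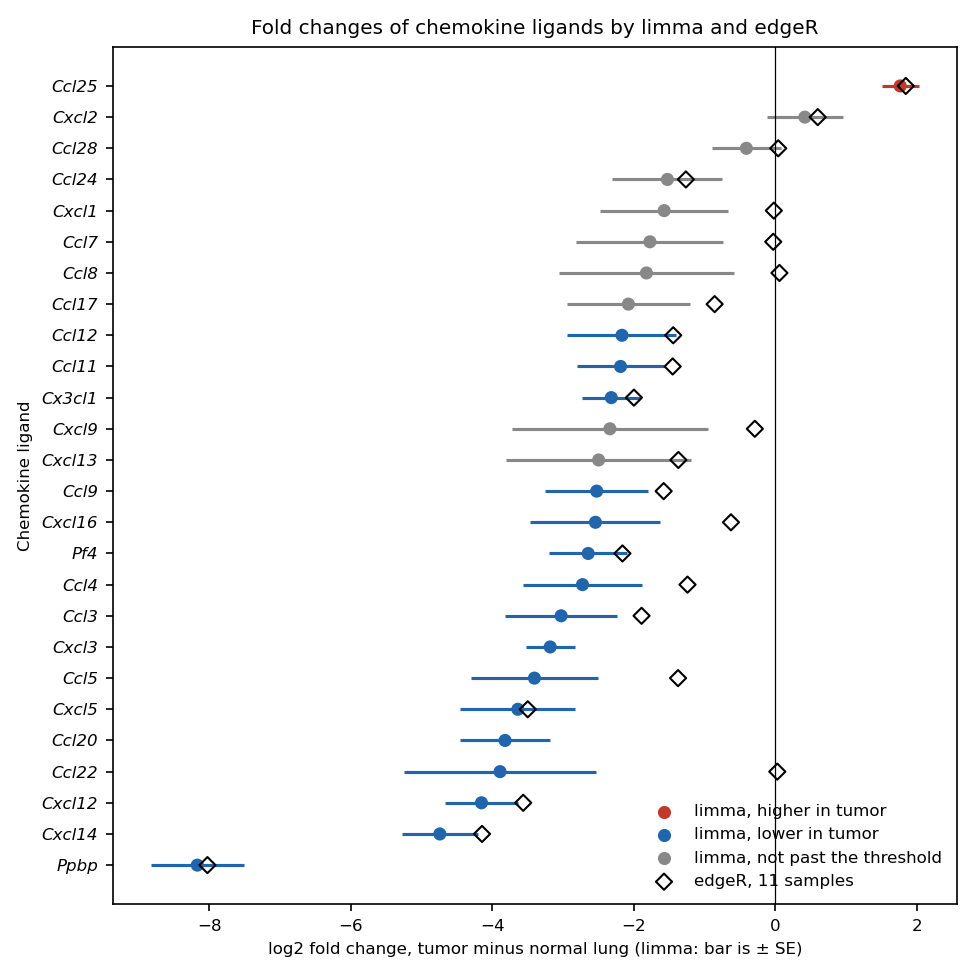
Log2 fold changes of the 26 ligands, tumor minus normal lung, on the x axis. Filled points are limma estimates with bars of ± SE, coloured by call, and open diamonds are edgeR estimates from 11 samples (none for Cxcl3 and Ccl20, which had too few reads). Ccl25 lies at 1.77 and Ppbp at -8.17, and the methods part most for Ccl22 (-3.89 and 0.03).

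Ccl25 (ENSMUSG00000023235), known for drawing Ccr9-bearing thymocytes and gut-homing T cells, was the 1 ligand that rose. Normal lungs 1 to 5 held 316, 162, 254, 147 and 340.3 normalized counts, and tumors 1 to 7 held 859, 751, 697, 799, 1149, 952 and 472. Every tumor lay above every normal lung, and tumor 7 was the lowest of the tumors. Mean levels went from 244 ± 87.6 (SD, n = 5) to 811 ± 211 (SD, n = 7), and this difference gave a log2 fold change of 1.77 (SE 0.26, limma adjusted p = 6.00e-05). The call was the same in each alternative run, edgeR included (1.84). Its receptor Ccr9 was lower in tumor (log2 fold change -1.76, limma adjusted p = 0.0116), from 25.8 to 40.9 (median 34.5) in normal lungs to 3.80 to 43.6 (median 6.47) in tumors, a call that edgeR did not make (-1.07, edgeR adjusted p = 0.129).

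The Ccl25 count has a limit that comes from its position. In GENCODE M21 the gene overlaps Elavl1, a gene for an RNA-binding protein, on the opposite strand, and 204 of the 7445 exonic bases of Ccl25 (2.74%) are also exonic in Elavl1. Elavl1 was itself higher in tumor, at 1272, 1477, 1557, 1614 and 1512 in normal lungs and 3031, 3059, 3727, 2189, 3346, 2747 and 1971 in tumors (log2 fold change 0.92, SE 0.16, limma adjusted p = 2.68e-04). Its part in the Ccl25 count was not tested, and whether counting used the strand is not given in the sources used here. RefSeq lists 2 start sites for Ccl25, and gene-level counts do not tell them apart. The 250 bases before each start are shown because Ccl25 is the ligand that rose, with TATAAA, the letters of a TATA box, in capitals where present (build GRCm38.p6, 5′ to 3′).
Ccl25, first start, chr8:4324960-4325209, plus strand: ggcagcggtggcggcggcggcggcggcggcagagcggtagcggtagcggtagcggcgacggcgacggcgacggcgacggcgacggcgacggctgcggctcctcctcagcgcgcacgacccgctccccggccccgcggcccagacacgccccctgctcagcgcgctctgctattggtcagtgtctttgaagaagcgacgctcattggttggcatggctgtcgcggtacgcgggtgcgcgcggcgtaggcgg
Ccl25, second start, chr8:4349338-4349587, plus strand: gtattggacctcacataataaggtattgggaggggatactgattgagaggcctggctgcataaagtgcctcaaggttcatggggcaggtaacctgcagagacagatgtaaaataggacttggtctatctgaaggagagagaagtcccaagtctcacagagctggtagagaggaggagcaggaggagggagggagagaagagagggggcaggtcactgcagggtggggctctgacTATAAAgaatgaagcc
The first has no match to any motif searched. The second has a single TATAAA, between 16 and 11 bases before the start.

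Cxcl12 and Cxcl14, ligands made at rest by stromal and epithelial cells, fell in all tumors. Cxcl12, which retains Cxcr4-bearing cells in tissues, had 8966, 9331, 9009, 7113 and 9975 normalized counts in normal lungs and 96.9, 721, 472, 816, 300.1, 501 and 1778 in tumors. Tumor 1 was lowest and tumor 7 highest, and the highest tumor was well below the lowest normal lung. The log2 fold change came to -4.15 (SE 0.52, limma adjusted p = 1.39e-05). Cxcl14, an epithelial and fibroblast ligand whose main receptor is debated, had 1902, 1941, 2429, 2397 and 4449 in normal lungs and 57.0, 150.1, 17.8, 227, 97.1, 67.4 and 238 in tumors, again with no overlap. It fell by 4.74 on the log2 scale (SE 0.54, limma adjusted p = 5.93e-06), and both calls were kept in edgeR (-3.56 and -4.15).

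Cxcl13, which guides B cells through Cxcr5, did not pass the threshold. It had 182, 141, 895, 284 and 24.1 in normal lungs and 46.8, 45.3, 0.991, 285, 0.809, 53.2 and 225 in tumors (log2 fold change -2.50, SE 1.31, limma adjusted p = 0.113). Both groups spread widely: tumors 1, 2, 4, 6 and 7 were within the normal lung range, while tumors 3 and 5 had 1 read each. Of the receptors of these ligands, Cxcr4 did not pass the threshold (1483 to 2577 (median 2058) in normal lungs and 356 to 2799 (median 2061) in tumors, log2 fold change -0.47, limma adjusted p = 0.384). Cxcr5 and Ackr3, a scavenging receptor for Cxcl12, fell (log2 fold changes -5.49 and -2.70, limma adjusted p = 1.65e-05 and 2.22e-04). Beside Cxcl12 and Cxcl14, 6 of 6 endothelial markers fell, with sums of 59707 to 72054 in normal lungs and 766 to 4971 in tumors and no marker at 0. Among 7 fibroblast markers 2 fell and 5 did not pass the threshold, with sums of 10901 to 26218 and 3445 to 31188. The part of either cell type in the ligand values was not tested.

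Cx3cl1 and Cxcl16 are made as membrane-bound ligands that can be shed, and both fell by limma. Cx3cl1 (fractalkine), which holds Cx3cr1-bearing monocytes to endothelium, had 1373, 1281, 1644, 1709.7 and 1596 in normal lungs and 109.5, 238, 476, 329, 165, 369 and 918 in tumors. Tumor 7 came closest to normal lung and tumor 1 was farthest, and no tumor reached the lowest normal lung. Limma gave a log2 fold change of -2.32 (SE 0.41, limma adjusted p = 2.74e-04). Its receptor Cx3cr1 fell by 4.56 on the log2 scale (SE 0.91, limma adjusted p = 7.07e-04), from 1346 to 1987 (median 1790.1) to 6.94 to 690.4 (median 89.8).

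Cxcl16, the ligand of Cxcr6 and a scavenger of oxidised lipid, varied more among the tumors. It had 1193, 1099.9, 1528, 1581 and 977 in normal lungs and 149, 45.3, 26.8, 171, 267, 757 and 3181 in tumors. Tumors 1 to 6 were below the normal lungs and tumor 7 above all of them, so the groups overlapped. The log2 fold change came to -2.54 (SE 0.92, limma adjusted p = 0.0276), and the SD of log2 values was 2.33 in tumors against 0.30 in normal lungs. The call was lost in edgeR (-0.63, edgeR adjusted p = 0.541) and DESeq2 (-0.73), and with the Y-linked covariate (limma adjusted p = 0.0649). In limma it was lost without normal lung 3 (-2.47), normal lung 4 (-2.46) or tumor 2 (-2.17), with adjusted p from 0.0524 to 0.0568. Of the 3021 exonic bases of Cxcl16, 552 (18.3%) are shared with Zmynd15 on the opposite strand. Zmynd15 had 55.7, 58.4, 6.94, 36.8, 217, 867 and 4844 in tumors and 457, 182, 619, 293 and 225 in normal lungs, also highest in tumor 7, and its part in the Cxcl16 count was not tested.

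**Figure D3:**
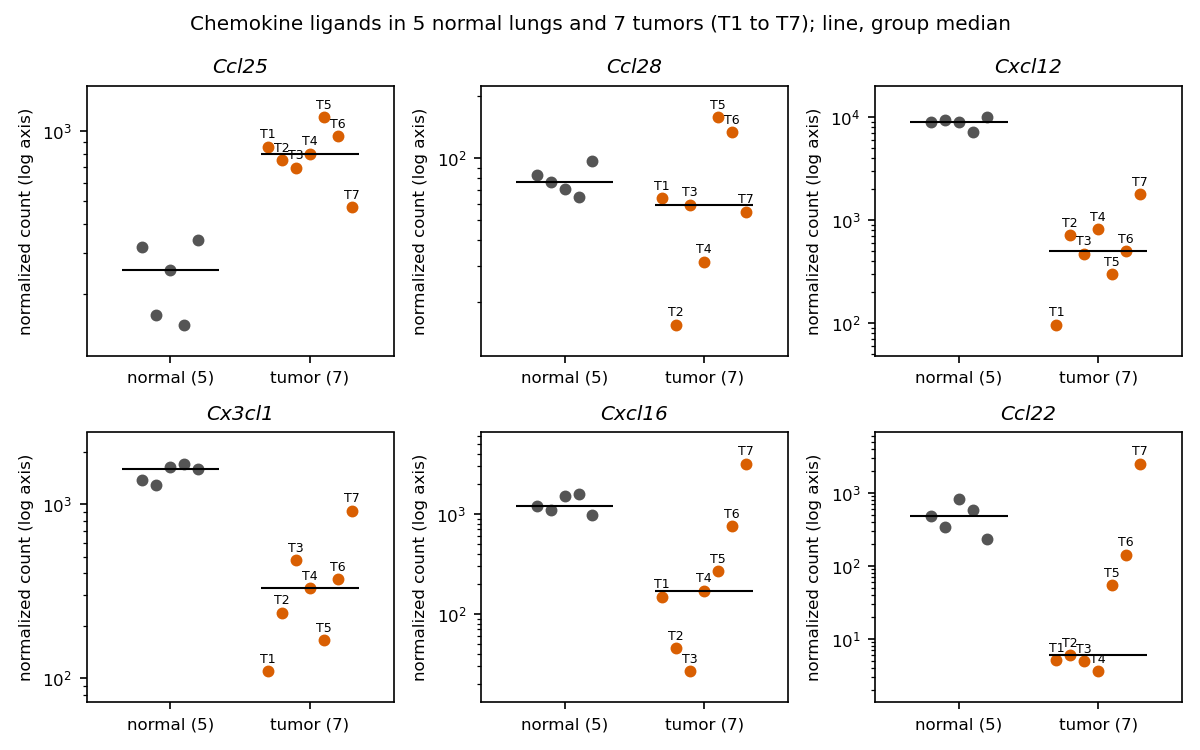
Normalized counts (log axis) of Ccl25, Ccl28, Cxcl12, Cx3cl1, Cxcl16 and Ccl22 in 5 normal lungs (grey) and 7 tumors (orange, labelled T1 to T7), with group medians as lines. Tumors lie above normal lungs for Ccl25 and below for Cxcl12 and Cx3cl1, while T7 exceeds every normal lung for Cxcl16 (3181) and Ccl22 (2523).

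The platelet chemokines fell, Ppbp far more than Pf4. Ppbp, the precursor of a neutrophil-activating peptide of platelet granules, had 1163, 3364, 1029, 1847 and 397 normalized counts in normal lungs and 1.90, 1.19, 0, 9.88, 9.71, 4.04 and 6.40 in tumors. Every tumor held under 10 normalized counts and the lowest normal lung, number 5, held 397. This was the largest change among the ligands, a log2 fold change of -8.17 (SE 0.65, limma adjusted p = 2.02e-07). Pf4, platelet factor 4, had 175, 533, 257, 322 and 105 in normal lungs and 31.0, 33.4, 11.9, 55.7, 28.3, 31.7 and 167 in tumors (log2 fold change -2.65, SE 0.55, limma adjusted p = 9.85e-04). Only tumor 7 (167) reached the normal lung range. Beside these, 8 of 8 platelet and megakaryocyte markers fell by limma, of which edgeR did not call Gp1ba (edgeR adjusted p = 0.166). Their sums were 908 to 3940.4 in normal lungs and 179.6 to 500.3 in tumors, and Gp6 was at 0 in 6 of the 7 tumors. In tumor 7 the platelet markers summed to 268, within the span of the other tumors. The part of platelets in these values was not tested. Ppbp is shown because its transcript fell most, with TATAAA in capitals (RefSeq, GRCm38.p6, 250 bases before the start).
Ppbp, chr5:90768268-90768517, plus strand: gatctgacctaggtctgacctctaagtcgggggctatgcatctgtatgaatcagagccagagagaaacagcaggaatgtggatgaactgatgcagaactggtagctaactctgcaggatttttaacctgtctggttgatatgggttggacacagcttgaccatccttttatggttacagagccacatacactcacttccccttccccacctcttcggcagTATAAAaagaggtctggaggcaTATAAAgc
It holds TATAAA at 30 to 25 and at 8 to 3 bases before the start.

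Of the 5 CXC ligands of Cxcr2, which attract neutrophils, 3 fell (Ppbp, above, Cxcl3 and Cxcl5) and Cxcl1 and Cxcl2 did not pass the threshold. Cxcl3 had 7.74, 5.38, 19.4, 11.3 and 5.75 in normal lungs, a low level, and in tumors a single read in tumor 5 and none in the others. The ratio of normal lung to tumor was 81.4 from 36 reads against 1, with an exact 95% counting interval of 13.7 to 3302. It fell by 3.18 on the log2(value + 1) scale (SE 0.35, limma adjusted p = 4.13e-06), which understates so low a gene, and had too few reads for edgeR. Cxcl5, a ligand of lung epithelium, had 74.8, 43.0, 173, 39.5 and 9.20 in normal lungs and 6.33, 0, 0.991, 6.29, 0, 11.5 and 7.69 in tumors. It fell by 3.64 on the log2 scale (SE 0.81, limma adjusted p = 0.00159), and normal lung 5 (9.20) was the 1 normal lung within the tumor range.

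Cxcl1 had 15.5, 17.2, 48.5, 31.0 and 5.75 in normal lungs and 4.43, 2.38, 0, 7.18, 2.43, 11.5 and 96.7 in tumors, with tumor 7 above every normal lung. Limma gave a log2 fold change of -1.57 (SE 0.91, limma adjusted p = 0.149), and without tumor 7 it passed (-2.21, limma adjusted p = 0.0102). Cxcl2 had 12.9, 5.38, 17.8, 15.5 and 2.30 in normal lungs and 5.06, 23.8, 7.93, 6.29, 17.8, 12.8 and 24.98 in tumors, where tumor 2 and tumor 7 were above every normal lung and tumor 5 (17.8) just past the highest. Limma gave a log2 fold change of 0.42 (SE 0.54, limma adjusted p = 0.52). The receptors Cxcr1 and Cxcr2 fell (log2 fold changes -5.32 and -5.87, limma adjusted p = 1.17e-05 and 8.18e-06). All 7 neutrophil markers fell by limma, while edgeR did not call S100a8, S100a9 or Retnlg (edgeR adjusted p = 0.434, 0.359 and 0.062) and did not test Ly6g. The sums of all 7 were 2303 to 5954 in normal lungs and 6.94 to 4647 in tumors. Tumor 2 was the highest tumor, at 4647, and the others reached at most 362. The tumor 2 sum was led by S100a9 (2847) and S100a8 (1296), which were above every normal lung there. Retnlg, Mmp8 and Ly6g (1.19) were within the normal lung range in tumor 2, and Csf3r (142) and Cxcr2 (67.9) were below it. The tumor 2 values of Cxcl1 (2.38) and Cxcl5 (0) were below every normal lung. The part of neutrophils in these values was not tested.

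Cxcl1, Cxcl2 and Cxcl3 lie close together on chromosome 5 and are known as targets of the factor NF-kappaB. Their upstream sequences are shown because the tumor values of these neighbours differ, with matches on either strand to a loose NF-kappaB motif (3 G, any 5 bases, 2 C) and to TATAAA in capitals.
Cxcl1, chr5:90890995-90891244, plus strand: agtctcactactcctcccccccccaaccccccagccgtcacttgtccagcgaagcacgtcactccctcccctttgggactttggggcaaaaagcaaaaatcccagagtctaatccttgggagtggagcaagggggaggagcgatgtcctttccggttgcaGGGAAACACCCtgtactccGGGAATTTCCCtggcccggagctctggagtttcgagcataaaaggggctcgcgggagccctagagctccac
Cxcl2, chr5:90903649-90903898, plus strand: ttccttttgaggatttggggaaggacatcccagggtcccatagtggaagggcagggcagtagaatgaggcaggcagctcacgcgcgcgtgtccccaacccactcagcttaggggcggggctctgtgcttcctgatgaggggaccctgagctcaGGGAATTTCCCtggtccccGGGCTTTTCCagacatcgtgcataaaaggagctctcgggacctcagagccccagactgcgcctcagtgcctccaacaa
Cxcl3, chr5:90785851-90786100, plus strand: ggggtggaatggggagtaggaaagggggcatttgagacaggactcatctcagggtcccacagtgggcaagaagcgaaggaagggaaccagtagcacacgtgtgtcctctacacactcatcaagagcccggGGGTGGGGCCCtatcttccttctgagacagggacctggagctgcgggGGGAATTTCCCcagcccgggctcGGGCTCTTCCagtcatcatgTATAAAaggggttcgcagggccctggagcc
All 3 hold the run GGGAATTTCC. Over all listed promoters of the same length, 45.8% hold the loose NF-kappaB motif and 12.4% TATAAA. Of the 20 promoters of the 19 ligands matched by symbol, 10 and 9 did. Of the other motifs searched on both strands, CAGCTG was in 7 of the 20 (13.0% of all promoters), TTCNNNGAA in 2 (7.02%) and AGATAA in 1 (9.99%). Matches were counted per promoter, since those to the NF-kappaB motif often overlap each other.

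The macrophage inflammatory ligands Ccl3, Ccl4, Ccl5 and Ccl9 all fell by limma, and tumor 7 reached the normal lung range or passed it for each. Ccl5 (RANTES), made largely by T and NK cells, had 263, 259, 391, 210.2 and 175 in normal lungs and 11.4, 7.15, 2.97, 15.3, 22.6, 62.0 and 431 in tumors. Tumors 1 to 6 were below every normal lung and tumor 7 was above them all. Ccl3 had 20.6, 87.1, 45.2, 32.4 and 40.2 in normal lungs and 9.50, 0, 0.991, 2.69, 1.62, 8.76 and 42.9 in tumors. Ccl4 had 10.3, 34.4, 29.1, 24.0 and 18.4 and 2.53, 0, 0, 0, 3.24, 8.09 and 38.4, with 0 in tumors 2, 3 and 4. Both encode ligands that activated macrophages and T cells release. Ccl9, a myeloid ligand of Ccr1, had 441, 614, 1300.1, 872 and 238 in normal lungs and 89.9, 38.1, 20.8, 302, 84.9, 89.0 and 682 in tumors, where tumors 4 and 7 were within the normal lung range.

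Log2 fold changes were -3.41 for Ccl5 (SE 0.90), -3.03 for Ccl3 (SE 0.79), -2.73 for Ccl4 (SE 0.84) and -2.53 for Ccl9 (SE 0.73), with limma adjusted p of 0.00497, 0.00474, 0.0127 and 0.00875. None of these 4 calls was kept in edgeR, where the values were -1.37, -1.89, -1.24 and -1.58 (edgeR adjusted p = 0.224, 0.0729, 0.267 and 0.0693). DESeq2 called Ccl3 and Ccl9 lower (-2.01 and -1.67), did not call Ccl4 (-1.38, DESeq2 adjusted p = 0.226) and gave no adjusted p for Ccl5. With a covariate for Y-linked genes Ccl3 missed the threshold (-2.73, limma adjusted p = 0.0501). Ccr1, a receptor of Ccl3, Ccl5 and Ccl9, fell by 3.23 on the log2 scale (limma adjusted p = 2.38e-05). Beside these, 8 of 10 macrophage and monocyte markers fell by limma, of which edgeR did not call Adgre1 and Cd68 (edgeR adjusted p = 0.0942 and 0.0861). The sums of all 10 were 85069 to 169795 in normal lungs and 1006 to 25003 in tumors. Lyz2, a lysozyme of myeloid cells and of alveolar epithelium, made up 89.3 to 93.2% of that sum in normal lungs. The other 9 markers summed to 6380.4 to 16059 in normal lungs, 872 to 5875 in tumors 1 to 6 and 19389 in tumor 7, above every normal lung. In tumor 7 C1qa (7788) and C1qb (6805) exceeded the highest normal lung (4516 and 3146). No other of these markers did, and Csf1r, Siglecf and Ly6c2 were below every normal lung there. Of the T and NK cell markers 9 of 10 fell by limma. Among these, edgeR did not call Cd3e, Cd3g, Cd4, Trac or Nkg7 (edgeR adjusted p from 0.0621 to 0.192). The sums of all 10 were 1311 to 2403 in normal lungs and 48.8 to 2564 in tumors. Without Cd8a these sums were 1125 to 2069 and 48.8 to 1280. In tumor 7 only Cd8a was above every normal lung, and Ncr1, Klrb1c and Gzma were below every normal lung. Siglecf was at 0 in tumors 1 to 4. The part of these cells in the ligand values was not tested.

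Of the CC ligands listed as attracting monocytes, Ccl12 fell by limma while Ccl7 and Ccl8 did not pass the threshold. Ccl12 had 21.9, 25.8, 27.5, 31.0 and 4.60 in normal lungs and 3.17, 0, 0, 8.08, 4.04, 6.74 and 21.8 in tumors. Tumors 4, 6 and 7 overlapped the normal lungs through normal lung 5 (4.60). Its log2 fold change came to -2.17 (SE 0.77, limma adjusted p = 0.0256). This call was lost without normal lung 1, 2, 3 or 4 (limma adjusted p = 0.0505, 0.0561, 0.0567 and 0.0613), in edgeR (-1.44), in DESeq2 (-1.55), with a pseudocount of 0.1 (-3.17) and with the Y-linked covariate (-2.39).

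Ccl7 had 29.7, 12.9, 37.1, 40.9 and 6.90 in normal lungs and 8.23, 1.19, 0, 16.2, 0, 13.5 and 96.1 in tumors, and Ccl8 had 124, 83.9, 152, 137 and 11.5 and 14.6, 8.34, 0, 102, 5.66, 60.6 and 391. In both genes tumor 7 was above every normal lung and tumor 3 was at 0. Their log2 fold changes were -1.77 and -1.82 (SE 1.04 and 1.23, limma adjusted p = 0.154 and 0.214). Without tumor 7 Ccl7 passed (-2.42, limma adjusted p = 0.0229) and Ccl8 did not (-2.52, limma adjusted p = 0.054). Ccr2, a receptor of Ccl7 and Ccl12, fell by 5.86 on the log2 scale (SE 0.76, limma adjusted p = 1.95e-05), from 744 to 2304 (median 1702) to 3.57 to 266 (median 31.4), and in tumor 7 too it stayed below every normal lung.

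Ccl11, eotaxin, which acts on eosinophils through Ccr3, fell without overlap, from 92.9, 76.3, 108, 73.4 and 81.6 in normal lungs to 31.0, 31.0, 2.97, 29.6, 4.85, 18.9 and 60.8 in tumors. Normal lungs were close to each other, and tumors 3 and 5 were lowest. It fell by 2.19 on the log2 scale (SE 0.61, limma adjusted p = 0.00691), also in edgeR (-1.45), and missed the threshold with the Y-linked covariate (-2.03, limma adjusted p = 0.058). Ccl24, a further Ccr3 ligand, had 11.6, 7.53, 85.6, 9.87 and 13.8 in normal lungs and 3.80, 8.34, 0, 2.69, 3.24, 13.5 and 25.6 in tumors and did not pass (log2 fold change -1.53, SE 0.78, limma adjusted p = 0.104), although it did without tumor 7 (-1.88). Ccr3 fell by 4.71 on the log2 scale (limma adjusted p = 4.63e-05), with 0 to 16.0 (median 0.809) in tumors against 39.1 to 117.2 (median 43.8) in normal lungs.

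The Ccr4 ligands Ccl17 and Ccl22, which dendritic cells and macrophages make and which draw helper and regulatory T cells, differed widely between single tumors. Ccl22 had 476, 339.7, 827, 583 and 231 in normal lungs and 5.06, 5.96, 4.96, 3.59, 54.2, 143 and 2523 in tumors. Tumors 1 to 4 held 3.59 to 5.96, tumors 5 and 6 lay between these and normal lung, and tumor 7 was above the highest normal lung. Tumors 5, 6 and 7 share a title number. The log2 fold change came to -3.89 (SE 1.35, limma adjusted p = 0.023), a call lost without normal lung 3 (-3.67, limma adjusted p = 0.0517). In edgeR the value was 0.03 (edgeR adjusted p = 0.988), and with tumor 7 also left out -3.48 (edgeR adjusted p = 0.00629). Ccl17 had 107, 76.3, 200.3, 161 and 41.4 in normal lungs and 1.27, 45.3, 12.9, 17.1, 18.6, 41.8 and 231 in tumors. It narrowly missed the threshold (log2 fold change -2.08, SE 0.87, limma adjusted p = 0.0514) and passed without tumor 7 (-2.62), without normal lung 5 (-2.40), without the trachea-titled tumors 1 and 7 (-2.04), with same-numbered tumors correlated (-2.29) and with the Y-linked covariate (-3.85).

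Genes of dendritic cells took a like order in tumors 5, 6 and 7. This order was not particular to them, as each of the 4 leukocyte markers took it too, with sums of 1378, 3861 and 16281. Ccr7, the receptor of migrating dendritic cells, had 3.80, 4.77, 3.97, 11.7, 44.5, 219 and 1970 in tumors against 407 to 825 (median 715) in normal lungs. Xcr1, of the cross-presenting subset, had 0, 2.38, 0, 1.80, 112, 508 and 1376 against 77.0 to 213 (median 192), and Clec9a, of the same subset, 4.43, 25.02, 8.92, 19.8, 328, 1671 and 3905 against 1305 to 1866 (median 1350.4). Cd209a, also on the dendritic cell list, stayed far below normal lung, at 0, 1.35 and 10.2 in tumors 5, 6 and 7 against 135 to 344 (median 241). Of the 7 dendritic cell markers 4 fell by limma, 2 did not pass and Fscn1 rose, with sums of 4289 to 5414 in normal lungs and 3653 to 14423 in tumors. Of the 4, edgeR kept Cd209a and did not call Ccr7, Clec9a or Zbtb46 (edgeR adjusted p = 0.646, 0.743 and 0.12). Fscn1, which encodes an actin-bundling protein, made up 32.3 to 86.9% of the tumor sums. The other 6 markers summed to 3759 to 4267 in normal lungs and to 897, 658, 903, 594, 1246, 3886 and 9759.7 in tumors 1 to 7. Ccr4 fell by 3.10 on the log2 scale (limma adjusted p = 5.86e-04). The part of dendritic cells in Ccl17 and Ccl22 was not tested.

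Cxcl9, induced by interferon gamma and a ligand of Cxcr3 on T and NK cells, did not pass the threshold. It had 95.4, 58.1, 381, 183 and 13.8 in normal lungs and 3.80, 7.15, 0, 2.69, 55.8, 162 and 424 in tumors (log2 fold change -2.34, SE 1.38, limma adjusted p = 0.158). Tumors 1 to 4 were below every normal lung, tumors 5 and 6 were within the normal lung range and tumor 7 was above it. It passed without tumor 7 (-3.10, limma adjusted p = 0.0385) and had a value of -0.29 in edgeR. Cxcr3 was likewise highest in tumor 7, with 0.633, 0, 0.991, 7.18, 26.7, 209 and 716 in tumors against 60.9 to 405 (median 246) in normal lungs, and fell by 3.83 on the log2 scale (limma adjusted p = 0.0378), a call that edgeR did not make (-0.42). Ifng itself was low throughout, at 2.30 to 29.1 (median 10.3) in normal lungs and 0 to 8.33 (median 0.809) in tumors. Cd8a, a marker of cytotoxic T cells, had 3.17, 0, 0.991, 5.39, 100.3, 489 and 1284 in tumors against 185 to 411 (median 334) in normal lungs. The other T and NK cell markers did not share its rise in tumor 6, where each was below every normal lung. Cd3e, for example, had 16.2 in tumor 6 and 248 in tumor 7 against 138 to 266 in normal lungs.

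Of the mucosal ligands, Ccl20 fell to near 0 and Ccl28 did not pass the threshold. Ccl20, the epithelial ligand of Ccr6, had 23.2, 24.7, 16.2, 55.0 and 1.15 in normal lungs, lowest in normal lung 5, and in tumors 1 read each in tumors 4 and 6 and none in the others. The ratio of normal lung to tumor was 103 from 91 reads against 2, with an exact 95% counting interval of 27.7 to 862. It fell by 3.82 on the log2(value + 1) scale (SE 0.63, limma adjusted p = 1.61e-04) and had too few reads for edgeR. Ccr6 fell by 4.92 on the log2 scale (limma adjusted p = 3.27e-04). Ccl28, which draws plasma cells to mucosa through Ccr10, had 82.5, 76.3, 71.1, 64.9 and 96.6 in normal lungs and 63.9, 15.5, 59.5, 31.4, 159, 134 and 55.1 in tumors. Tumors 5 and 6, which share a title number, were above every normal lung, and the other 5 tumors below all of them. Its log2 fold change came to -0.41 (SE 0.49, limma adjusted p = 0.482). Beside these, 6 of 6 alveolar and 5 of 6 airway epithelial markers fell by limma, of which edgeR did not call Muc5b (edgeR adjusted p = 0.105). Airway sums were 103530 to 249129 in normal lungs and 279.6 to 6164 in tumors. The part of these epithelial cells in the ligand values was not tested.

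Single tumors were set against the range of the 5 normal lungs, as a description without a test since each is 1 library. Tumor 3 had the most ligands below that range, 24 of 26, where 38.0% of all tested genes lay below it in that tumor. Tumors 1, 2, 4, 5 and 6 had 21, 21, 18, 22 and 14 below (37.0%, 38.4%, 37.5%, 36.8% and 35.7% of all genes). Above the range were 1 ligand in tumors 1, 3 and 4, 2 in tumors 2 and 6 and 3 in tumor 5, in every case including Ccl25 (in tumors 1 to 6, 38.1, 39.3, 39.3, 39.7, 40.1 and 39.3% of all genes).

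Tumor 7 differed from the other tumors, with 11 of 26 ligands above the normal lung range (38.1% of all genes), 6 within and 9 below it (31.1%). Both counts were near the share of all genes in that tumor. With columns scaled to equal totals 7 were below. The 11 were Cxcl1, Cxcl2, Cxcl9, Cxcl16, Ccl4, Ccl5, Ccl7, Ccl8, Ccl17, Ccl22 and Ccl25. Tumor 7 was also the highest tumor for 19 of the 26 ligands, where it was the highest for 24.5% of all tested genes. The 9 ligands that stayed below included Cxcl12 (1778), Cxcl14 (238), Cx3cl1 (918), Ppbp (6.40) and Ccl20, listed at 0. In tumor 7, sums above every normal lung included those of T and NK cell markers, 2564 (1311 to 2403 in normal lungs). Also above were the sums of fibroblast markers, 31188 (10901 to 26218), and smooth muscle markers, 8919 (5334 to 8362). The 9 macrophage and monocyte markers other than Lyz2 summed to 19389 (6380.4 to 16059), led by C1qa and C1qb. Without Cd8a the T and NK cell sum was 1280, within the normal lung range (1125 to 2069). Without Acta2 the smooth muscle sum was 4545, also within it (3820 to 5927). Pdgfra and Pdgfrb were below every normal lung, while Col1a1, Col1a2, Col3a1, Dcn and Lum were above. With Lyz2 the macrophage and monocyte sum was 25003, below every normal lung (85069 to 169795), as was the B cell sum, 1193 (2529 to 5319.9). The part of these cells, and of the cardiac muscle markers in that sample, was not tested.

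**Figure D4:**
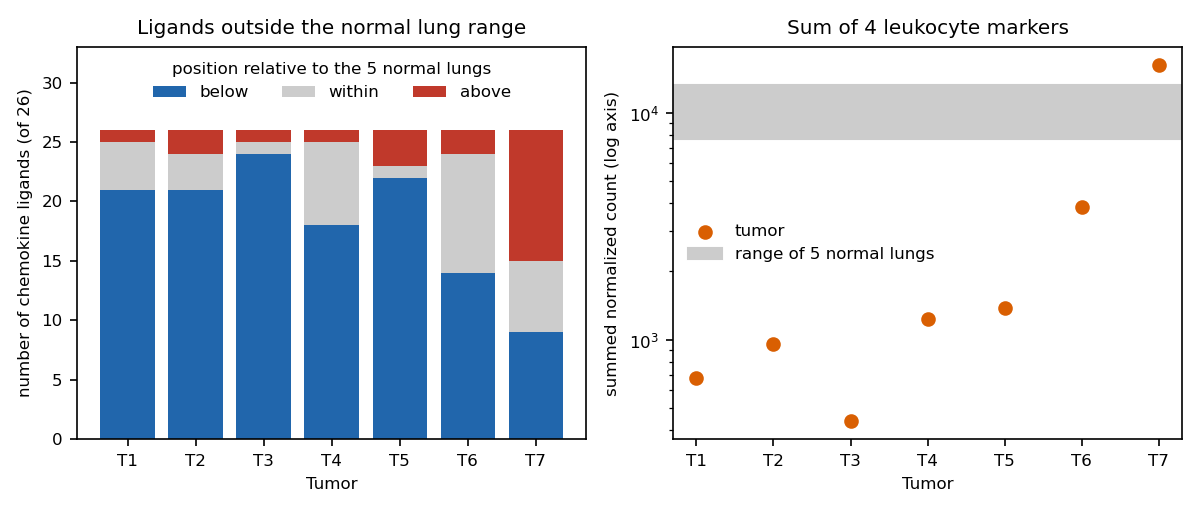
Left, number of the 26 ligands below, within and above the range of the 5 normal lungs in each tumor. Right, summed normalized counts (log axis) of 4 leukocyte markers in each tumor with the range of the normal lungs shaded. Tumor 7 has 11 ligands above the range, near the share of all tested genes there (38.1%), and a leukocyte sum of 16281. Tumor 3, with the lowest sum (437), has 24 ligands below (38.0% of all tested genes). A link between ligand counts and leukocyte sums was not tested.

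Levels can be compared between ligands only per length, so group medians were divided by the exonic length of each gene in GENCODE M21. In normal lung Cxcl14 (1312 normalized counts per kb), Cxcl12 (1102) and Ppbp (1074) led, followed by Cx3cl1 (406), Cxcl16 (395) and Pf4 (356). Sample ranges of neighbours in this order overlapped. In tumors the order was Ccl25 (107), Cx3cl1 (83.6), Cxcl12 (61.3), Cxcl16 (56.5), Cxcl14 (53.1) and Pf4 (43.9), with overlapping sample ranges between neighbours. Ccl25 stood 18th of the 26 in normal lung and Ppbp 18th in tumors. Within normal lung the ligands spread unevenly: normal lung 5 was the lowest of the normal lungs for 16 of the 26 ligands and normal lung 3 the highest for 13.

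The receptors and inducers of these ligands, from lists chosen for the pathway, were mostly lower by limma. Of 16 chemokine receptors analysed, 13 fell (30.1% of all tested genes), 0 rose (31.4%) and 3 did not pass, with a median log2 fold change of -4.09. The count of lower receptors was 9 in edgeR (26.3% of all genes tested there). Among 5 atypical receptors, which bind chemokines without driving migration, Ackr2, Ackr3, Ccrl2 and Gpr182 fell, with log2 fold changes of -5.60, -2.70, -4.57 and -4.44. Ackr1, the Duffy receptor of venules, rose by 2.04 (limma adjusted p = 0.0243), from 9.20 to 171 (median 25.4) to 27.4 to 426 (median 154). The call was lost with the Y-linked covariate (limma adjusted p = 0.156) and in edgeR with tumor 7 also left out (edgeR adjusted p = 0.058). Of its 1405 exonic bases 361 (25.7%) are shared with Cadm3, which rose too (2.55, limma adjusted p = 0.00113), and the part of Cadm3 in that count was not tested.

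Of 14 chemokine-inducing cytokines 12 could be tested, and 8 fell (30.1% of all tested genes), 2 rose (31.4%) and 2 did not pass. Il1b, Tnf and Il33, an alarmin of lung epithelium and stroma, fell (log2 fold changes -4.19, -3.46 and -5.74, limma adjusted p = 1.53e-04, 0.00152 and 3.03e-04). Il6 and Il4 rose by 1.17 and 0.53 (limma adjusted p = 0.0409 and 0.0231), Il6 from a low 3.45 to 11.8 (median 7.05) to 6.94 to 42.9 (median 15.5), and the Il6 call was lost without tumor 7 (limma adjusted p = 0.0671). With the Y-linked covariate both calls were lost (limma adjusted p = 0.344 and 0.103). Of 12 receptors and transducers of the inducing signals 11 fell (30.1% of all tested genes), among them Irf1 (-1.96) and the NF-kappaB subunits Nfkb1 (-1.90) and Rela (-0.89). Tnfrsf1a did not pass (-0.63). Outside the member list, Cxcl15 (lungkine) fell and Ccl27a, at 82.4 to 112 (median 98.7) in normal lungs and 139.6 to 336 (median 246) in tumors, rose by 1.27 (SE 0.24, limma adjusted p = 4.90e-04). The exons of Ccl27a share 8 bases with Il11ra1, which fell (-0.75).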

How the data were processed

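Messenger RNA was sequenced in 5 normal lungs and 7 tumors of mice. The table deposited by the authors holds a normalized read count signal per gene, gene counts divided by 1 size factor per library. The submitters' processing notes name featureCounts, DESeq2 and GRCm39; the aligner, the annotation and the use of strand are not given in the sources used here. In each column 100% of values were whole multiples of the smallest (tolerance 0.001), which gave the reads; tumor 3 did not pass a second check of this and was kept out of count tests. Gene symbols came from GENCODE M21 (29982 of 30399 identifiers). The 23674 genes with a mean of at least 1 were fitted on log2(value + 1) with limma 3.58.1 (R 4.3.3, lmFit, eBayes with trend), tumor against normal lung, Benjamini-Hochberg adjusted. Alternatives used edgeR 4.0.16 and DESeq2 1.42.0 on recovered reads, other filters, scalings and pseudocounts, and left out samples. Each model was tested on simulated data. Figures used matplotlib 3.10.9. Promoters came from RefSeq (GRCm38.p6) by symbol; exon lengths and overlaps came from GENCODE M21 (GRCm38), another build than the one named for the table, so they may differ from the gene models counted. Named genes are the members and the genes of the pathway and marker lists. The members and lists were chosen with earlier results of these data known. Replicate numbers follow the order of listing.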

Additional observations from a re-analysis of the deposited data

Results flagged for a closer look

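In 50 comparisons of single samples with the others of their group (26 ligands in 5 normal lungs, and in 7 tumors, where some sample passed 3 reads), 4 exceeded the 95% critical value of Dixon's test on log2(value + 1), where chance gives 2.5. All 4 were in normal lungs, 3 of them from normal lung 5. Normal lung 5 was highest for Cxcl14 (4449, next 2429) and lowest for Ccl8 (11.5, next 83.9) and Ccl12 (4.60, next 21.9). Normal lung 3 was highest for Ccl24 (85.6, next 13.8).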

How the results depend on the processing

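No paired analysis was possible because the labels give no replicate numbers that the groups share. With 1 sample left out at a time, limma called 13 to 21 ligands lower and 1 higher, and 12 to 15 receptors lower. The count of lower ligands moved past 1.5 times its value of 16 only in edgeR with TMM factors, to 7, on 11 samples. Of the 17 ligands called by limma, edgeR kept 8, DESeq2 12, the fit with a Y-linked covariate (added after seeing the data) 13 and edgeR with tumor 7 also left out 13, while equal totals, quantile normalization, no filter, and averaging or correlating same-numbered tumors kept 17. Some ligands not kept were not tested there. These were Cxcl3 and Ccl20 in edgeR, and with tumor 7 also left out Ccl4 and Ccl12 too, so every ligand tested in that fit was kept. DESeq2 gave no adjusted p for Ccl5 and Ccl22. Signs turned in edgeR for Ccl8 (0.0583), Ccl22 (0.0282) and Ccl28 (0.0411, or 0.0852 with tumor 7 also left out), and with the Y-linked covariate for Cxcl2 (-0.46). Ccl20 and Cxcl3 rest on 2 and 1 tumor reads, and their log2 fold changes with a pseudocount of 0.1 were -6.29 and -6.02. The cause of these differences was not tested.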
